A study of Mus musculus with 6 samples.

Results

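The most abundant circular RNAs (circRNAs) of the mouse heart were described as the 100 circRNA probes with the highest mean log2 value over 6 arrays in the table deposited by the authors. They were chosen by these measured values, out of 792 circRNA probes in that table and 1797 on the array, so their brightness is a description and no result. A circRNA is a closed RNA ring, made when the spliceosome joins the end of an exon back to the start of the same or an earlier exon of the transcript. Without free ends it resists exonucleases such as RNase R and can persist in cells that rarely divide, and the heart, whose muscle cells transcribe very long genes with many exons, holds many of them. The probes carry the manufacturer's identifiers. The files and tables used here pair none of them with a circRNA name, parent gene, position or sequence, so members are given by identifier, and whether several members stem from the same gene was not analysed here.

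The study compared 3 heart samples of WT and 3 of db/db mice to find circRNAs that differ in diabetic hearts. The db/db mouse has a defective leptin receptor, overeats, becomes obese and serves as a model of type 2 diabetes, so that obesity and high glucose come together in it and neither can be told apart from the other. The labels give male mice fed until 3 months of age, with C57BL/6J healthy controls, whereas the methods give the C57BL/KsJ strain for both genotypes and both sexes. Whether the WT mice shared the strain of the db/db mice is thus not settled. Total heart RNA was digested with RNase R, copied into Cy3-labelled cRNA and hybridized to 1 array per sample. The labels do not state that each sample was a separate animal. The p-values judge a difference between the groups over these samples, whose independence is thus not settled. The WT arrays and db/db replicate 3 lay in row 2 of the slide, and db/db replicates 1 and 2 in row 1. Of the 50 linear transcript probes of the array, 44 were matched to a gene. Of 44 markers fixed for 8 cell types, the matched probes carried only Hspb7, a small heat shock protein of heart muscle. Its normalized log2 level was 9.19, 9.09 and 9.19 in WT and 8.95, 7.85 and 8.49 in db/db hearts, above the highest negative control level of 5.48 on each array. RNase R removes linear RNA, so this level is that of the transcript left after digestion. Whether the digestion differed between samples was not tested. The markers of the other cell types could not be checked.

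All 100 members were well above background on every array, so none depended on a filter on dim probes. Their lowest unnormalized log2 signal on an array lay between 7.68 and 8.79, whereas the median of the negative control probes lay between 1.82 and 2.41. No spot was saturated, and the brightest spot of an array reached between 25.7% and 30.5% of the scanner's saturation value. Each member was read by 7 spots per array, and of the 700 member spots between 3 and 16 per array were left out as outliers. At the edge of the list, ASCRMP001479, ASCRMP000275 and ASCRMP001244 had deposited means of 8.91, 8.90 and 8.86. Just outside it, ASCRMP000025, ASCRMP001305 and ASCRMP000602 had 8.84, 8.82 and 8.79. No gap separated the list from the probes below it.

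The heart's circRNA signal was concentrated in a few probes. Brightness also depends on a probe's sequence and labelling, so shares and ranks are those of signal and not of molecules. Before normalization between arrays, 4 probes held 50% of the summed circRNA signal on each of the 6 arrays, and between 56 and 70 probes held 90% of it. The 100 members together held 93.5%, 93.5% and 93.3% of the signal in WT and 93.2%, 92.3% and 92.7% in db/db hearts. Every db/db array lay below every WT array, and the remaining 1697 probes held the rest. The mean share was 93.4% ± 0.129 in WT and 92.7% ± 0.435 in db/db hearts (SD, n = 3 each), a difference of -0.71 percentage points. An exact two-sided permutation test gave p = 0.1 (0.4 after Benjamini-Hochberg adjustment over 4 shares), and groups of 3 arrays cannot give a smaller one. The sign depended on the processing. The difference was 0.0794 percentage points with normexp background correction. It was 0.022 after quantile normalization, which gives each rank the same value on every array and so leaves this share little room to differ.

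The summed signal of all circRNA probes was 868160, 800468 and 889939 in WT and 960138, 988785 and 891464 in db/db hearts (exact permutation p = 0.1). The groups did not overlap, but db/db replicate 3, the only db/db array in row 2, lay barely above WT replicate 3. The db/db arrays that stood clearly higher were those of row 1, which held no WT array, so that row and genotype cannot be told apart for them. The members summed to 796750 ± 42654 in WT and 877795 ± 45713 in db/db hearts (SD, n = 3 each), with overlapping arrays. The other 1697 probes summed to 56106 ± 4049 and 69000 ± 6109 (SD, n = 3 each), without overlap. These sums are not normalized and follow the amount of RNA and labelling as well.

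The shares held by shorter lists of the highest members overlapped between genotypes. The highest member held 22.9% ± 0.808 of the signal in WT and 23.3% ± 0.513 in db/db hearts (SD, n = 3 each), and the 10 highest held 72.8% ± 1.22 and 73.6% ± 1.28 (SD, n = 3 each). The 50 highest held 88.8% ± 0.259 and 87.9% ± 1.13 (SD, n = 3 each). The exact permutation p for these shares was 0.5, 0.4 and 0.4. A drop in signal follows the sixth member, and after these values were seen the list was divided there. The 6 highest held 65.2%, 67.2% and 63.9% in WT and 70.1%, 66.1% and 67.3% in db/db hearts, with overlap. The other 94 members held 28.3%, 26.3% and 29.4% in WT and 23.0%, 26.2% and 25.4% in db/db hearts, where each db/db array lay below each WT array, by a narrow margin between db/db replicate 2 and WT replicate 2. The exact permutation p was 0.2 for the 6 highest and 0.1 for the other 94, and since the division was chosen on these values neither p supports a difference. Over the members, 51 had a higher and 49 a lower mean share in db/db hearts, and the gains summed to 5.39 and the losses to -6.10 percentage points.

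The brightest member, ASCRMP000703, held 22.7%, 23.8% and 22.2% of the signal in WT and 23.9%, 23.0% and 23.1% in db/db hearts. It ranked at the top on all 6 arrays, and its share did not separate the groups. ASCRMP000511, at rank 2, held 10.5%, 11.3% and 9.94% in WT and 10.2%, 10.9% and 10.3% in db/db hearts, again with overlap. ASCRMP001374 held 8.32%, 8.58% and 7.91% in WT and 11.1%, 10.7% and 9.64% in db/db hearts. All its db/db arrays were above all WT arrays, and its mean share differed by 2.20 percentage points, the largest difference of any member. It ranked 5, 5 and 5 in WT and 2, 3 and 4 in db/db hearts. ASCRMP001051 held 9.66% on each WT array and 9.28%, 8.74% and 8.82% on the db/db arrays, without overlap, and ranked 3 in WT and 5 in db/db hearts by the group mean. ASCRMP000083 held 9.08%, 8.84% and 9.34% in WT and 10.1%, 8.42% and 9.77% in db/db hearts. ASCRMP001180 held 4.92%, 5.01% and 4.80% in WT and 5.51%, 4.38% and 5.70% in db/db hearts. For both, the db/db shares fell on either side of the WT shares, and ASCRMP001180 ranked 6 on every array.

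Ranks 7 to 10 were taken by ASCRMP000912, ASCRMP000316, ASCRMP001323 and ASCRMP000224. The share of ASCRMP000316 was 2.13%, 2.09% and 2.13% in WT and 1.11%, 1.14% and 1.16% in db/db hearts. The groups lay far apart beside their spread, and the db/db mean was 0.536 times the WT mean, yet the member moved only from rank 8 to rank 9. ASCRMP000912 held 2.23% ± 0.169 and 2.17% ± 0.342, ASCRMP001323 1.54% ± 0.0965 and 1.27% ± 0.241, and ASCRMP000224 1.43% ± 0.194 and 1.17% ± 0.265 in WT and db/db hearts (SD, n = 3 each). The arrays of ASCRMP000912 and ASCRMP000224 overlapped between groups, and so did those of ASCRMP001323. Shares of single members were not tested.

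The order of the members was largely kept between genotypes. Spearman's rho between the WT and db/db means was 0.904 over the 100 members, which share their arrays and are not independent. Between pairs of WT arrays rho was 0.988 to 0.997, between pairs of db/db arrays 0.890 to 0.970, and between a WT and a db/db array 0.856 to 0.909. The lowest value within db/db was that of replicates 1 and 2, so db/db arrays also differed more among themselves in their order. The 10 highest probes were the same in both group means, and 9 of them were among the 10 highest on every array. Of the 100 highest probes in WT and the 100 highest in db/db hearts, 91 were shared, 91.0% of each list. Of the members, 85 were among the 100 highest circRNA probes on all 6 arrays. The median move between group means was 6 ranks, 46 members moved by at most 5 ranks, and 12 moved by more than 20.

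The largest climbs in rank were those of ASCRMP000957, ASCRMP000275 and ASCRMP001070. ASCRMP000957 ranked 96, 99 and 97 in WT and 50, 62 and 56 in db/db hearts. ASCRMP000275 ranked 118, 115 and 122 in WT and 72, 111 and 85 in db/db hearts. ASCRMP001070 ranked 59, 57 and 63 in WT and 32, 21 and 36 in db/db hearts. The ranks of the groups did not overlap for these members, although for ASCRMP000275 the gap to db/db replicate 2 was small. The largest drop was that of ASCRMP000942, which ranked 25, 22 and 30 in WT and 79, 60 and 73 in db/db hearts. ASCRMP001119 ranked 11, 10 and 11 in WT and 45, 29 and 37 in db/db hearts, so that a probe near the top of the WT order lay outside the highest 25 on each db/db array. Its move of -27 ranks between group means was smaller than the -29 of other members not named here.

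Members varied more between db/db than between WT arrays. The SD of the normalized log2 level over the 3 arrays of a group had a median over members of 0.06 in WT and 0.25 in db/db hearts, beside 0.09 and 0.22 over all 742 tested circRNA probes. The SD was larger in db/db hearts for 90 of the 100 members and for 83.0% of the tested probes. With scaling to the 75th percentile, the medians were 0.10 in WT and 0.23 in db/db hearts for the members, and 0.10 and 0.24 over all tested probes, and the SD was larger in db/db hearts for 82 members, beside 80.7% of the tested probes. The lower WT median of the members beside all probes was thus not seen with this scaling, and quantile normalization sets the SD of a probe of stable rank to 0. Between the spots of a member on an array, the median standard error was 0.0237 in WT and 0.0199 in db/db hearts. The SD between arrays was above the member's own mean standard error for 76 members in WT and 96 in db/db hearts. Quantile normalization set the SD to 0 for 14 members in WT and 3 in db/db hearts, which could not lie above it. The 2 counts are therefore not compared. Noise of labelling and hybridization between arrays was not measured. The difference of the medians, 0.19, was 0.0887 without db/db replicate 1 and 0.117 without db/db replicate 2. Those arrays lay in row 1 of the slide, whereas the WT arrays and db/db replicate 3 lay in row 2. Row and genotype therefore cannot be told apart for this spread.

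ASCRMP001244 had the largest db/db spread, with levels of 8.63, 8.95 and 8.31 in WT and 7.65, 9.99 and 8.88 in db/db hearts. ASCRMP001458 had 9.99, 10.46 and 9.92 in WT and 9.62, 11.86 and 10.68 in db/db hearts. ASCRMP001318 had 10.33, 10.55 and 10.28 in WT and 10.98, 9.31 and 10.55 in db/db hearts. In each, db/db replicates 1 and 2 lay on opposite sides of all WT arrays, with replicate 1 low for ASCRMP001244 and ASCRMP001458 and high for ASCRMP001318. ASCRMP001244 and ASCRMP001458 were also, with ASCRMP000013, the members of largest spread in WT hearts. For ASCRMP000013 the levels were 8.93, 9.26 and 8.67 in WT and 8.19, 9.48 and 8.99 in db/db hearts, with replicate 1 again the lowest. Quantile normalization gives the same value to the same rank on every array. The SD was 0 over the WT arrays for 14 members, the 6 highest among them, and over the db/db arrays for 3. ASCRMP000703 and ASCRMP001180 had levels of 17.66 and 15.46 on all 6 arrays, so their SD of 0 and log2 fold change of 0 follow from the method.

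Changes between genotypes were tested with limma over 742 circRNA probes, those that at least 3 arrays showed well above background. After Benjamini-Hochberg adjustment, 33 of the 100 members were past 0.05, beside 29.1% of all tested probes. In db/db hearts 16 of them were higher, beside 14.0% of the tested probes, and 17 lower, beside 15.1%. At a change of 1.5-fold or more and a P below 0.05, which is taken here as unadjusted although the methods leave this open for the array, 21 members were called, beside 19.1%. Of these, 10 were higher, beside 9.70%, and 11 lower, beside 9.43%. The groups did not overlap for 50 members, beside 46.4% of the tested probes. In this fit the members' counts thus lay close to those of all tested probes. Their median log2 fold change was 0.00 with a median absolute size of 0.27, against 0.01 and 0.27 over all tested probes. On the deposited values the counts lay further apart, with 40 members past adjusted 0.05, beside 25.8% of 792 probes. Without a filter on dim probes 24 members were past it, beside 232 of 1797 probes. With the slide row as a block, which leaves the contrast of db/db replicate 3 alone with the WT arrays and takes the spread from the WT arrays and the db/db pair of row 1, 2 members were past adjusted 0.05, beside 2.16% of all tested probes, and 20 past the thresholds on fold change and unadjusted P, beside 17.7%. All 33 members kept their sign. The number past adjusted 0.05 was 15, 18 and 17 without WT replicates 1, 2 and 3, beside 10.9%, 18.2% and 14.3% of all tested probes. It was 40, 41 and 19 without db/db replicates 1, 2 and 3, beside 35.3%, 39.2% and 17.4%.

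The balance of rises and falls depended on the scaling. Scaled to the 75th percentile of the circRNA probes well above background on all arrays, 9 members were higher and 21 lower at adjusted p 0.05, beside 12.3% and 12.7% of all tested probes. At the thresholds on fold change and unadjusted P, 5 were higher and 21 lower, beside 10.2% and 9.57%. Scaled to the median, 11 were higher and 22 lower at adjusted p 0.05, beside 14.4% and 14.2%. The median log2 fold change of the members was then -0.14 and -0.15, against 0.03 and 0.02 over all tested probes. With scaling to the 75th percentile and with quantile normalization, the median log2 fold change was -0.16 and 0.00 for the 10 highest members, -0.27 and -0.02 for members 11 to 50, and 0.04 and 0.05 for members 51 to 100. Of the 33 members, 24 were also past adjusted 0.05 with scaling to the 75th percentile, and all 33 had the same sign.

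Of the 2 members that fell most, ASCRMP001119 had levels of 13.12, 13.46 and 13.12 in WT and 10.68, 11.63 and 11.08 in db/db hearts. This probe had a log2 fold change of -2.11 (95% confidence interval -2.67 to -1.54, adjusted p = 0.00255), and its share of the signal was 1.18% ± 0.126 in WT and 0.255% ± 0.0993 in db/db hearts (SD, n = 3 each, adjusted p from limma). The groups lay well apart on all 6 arrays. ASCRMP000942 had 11.82, 12.00 and 11.59 in WT and 9.45, 10.13 and 9.62 in db/db hearts. The fold change on the log2 scale was -2.07 (-2.53 to -1.60, adjusted p = 0.00145). Both probes were lowest in db/db replicate 1. Within row 2, db/db replicate 3 differed from the WT mean by -2.15 for ASCRMP001119 (adjusted p = 0.0564 with the row as a block) and by -2.18 for ASCRMP000942 (adjusted p = 0.0405). These p-values rest on a single db/db array, which is assumed to vary like the other arrays. The other 15 members that fell had log2 fold changes between -1.13 and -0.35.

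Of the 2 members that rose most, ASCRMP000957 had levels of 8.90, 8.84 and 8.88 in WT and 10.52, 10.07 and 10.28 in db/db hearts. On the log2 scale it rose by 1.42 (1.11 to 1.73, adjusted p = 0.00145), and the gap between the groups was several times the spread within either. ASCRMP001070 had 10.15, 10.23 and 10.04 in WT and 11.42, 12.03 and 11.13 in db/db hearts. On this scale it rose by 1.39 (0.86 to 1.91, adjusted p = 0.0056), with db/db replicate 2 the highest. Within row 2, db/db replicate 3 differed from the WT mean by 1.40 for ASCRMP000957 (adjusted p = 0.042 with the row as a block) and by 0.99 for ASCRMP001070 (adjusted p = 0.0888), again with 1 db/db array. The other 14 members that rose had log2 fold changes between 0.46 and 1.06. The fold changes of these 4 probes kept their sign with each alternative.

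None of the 10 brightest members was past adjusted 0.05 in limma, beside 29.1% of all tested probes, or in the methods' t-test, beside 18.1%. Both tests used quantile normalized levels, which give a stable rank the same value on every array. ASCRMP000703 and ASCRMP001180 thus had a log2 fold change of 0 by the method, so the count of none is partly set by it. By these tests 1 and 2 of the 10 had an unadjusted P below 0.05. No share of all tested probes at unadjusted P alone is given, so these counts do not place the members beside all probes. With scaling to the 75th percentile 1 of the 10 was past adjusted 0.05, beside 24.9% of all tested probes. On the deposited values 3 of the 10 were, beside 25.8%. For ASCRMP000316 the normalized levels were 13.86, 14.27 and 13.86 in WT and 13.86, 13.46 and 13.46 in db/db hearts, with a log2 fold change of -0.40 (-0.80 to -0.00, adjusted p = 0.117). Scaled to the 75th percentile, the log2 fold change was -1.03 (-1.34 to -0.73, adjusted p = 0.00108), and on the deposited values -0.52 (adjusted p = 0.00927). For ASCRMP001374 the log2 fold change was 0.22 (-0.01 to 0.45, adjusted p = 0.14), 0.20 with scaling to the 75th percentile (adjusted p = 0.351) and 0.26 on the deposited values (adjusted p = 0.0215). For ASCRMP001051 it was -0.18 (-0.40 to 0.04, adjusted p = 0.201), and -0.19 on the deposited values (adjusted p = 0.0445). The calls for these 3 members thus changed with the values used, while their direction did not.

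The members with the smallest log2 fold changes were ASCRMP000703, ASCRMP001180, ASCRMP000083, ASCRMP000224 and ASCRMP001772. With scaling to the 75th percentile, which does not fix the highest ranks, the log2 fold change of ASCRMP000703 was -0.11 (-0.43 to 0.21), that of ASCRMP001180 -0.06 (-0.47 to 0.34) and that of ASCRMP000083 -0.08 (-0.46 to 0.30). For ASCRMP000224 it was -0.43 (-0.79 to -0.07, adjusted p = 0.0784). ASCRMP001772 had levels of 12.23 on each WT array and of 12.65, 11.69 and 12.37 in db/db hearts. Its fitted change of 0.00 on the log2 scale (-0.55 to 0.55) was the mean of db/db hearts on either side of WT, and the interval leaves room for changes of moderate size in either direction.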

How the data were processed

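The authors read the arrays with Agilent Feature Extraction 11.0.1.1, according to the submitters' processing notes, and deposited the intensity of each spot, which was corrected for background and not yet normalized. Log2 values that the authors had processed were deposited as well, for 792 circRNA probes. Normexp correction of spot and local background medians with offset 16, followed by quantile normalization, gave that table to within 0.0198 on the log2 scale, with column medians of 6.48 to 6.50. All 6 arrays were grouped by their labels. From the intensities, control and outlier spots were left out, each probe was taken as the mean log2 signal of its 7 spots, and the arrays were quantile normalized, as the methods name. Shares were computed before normalization. The genotypes were tested by limma 3.58.1 (R 4.3.3) over 742 probes with at least 50% of spots well above background on at least 3 arrays, with Benjamini-Hochberg adjustment, and the fit was tested on simulated data. The members and lists were chosen with earlier results of these data known. The rule for naming took the 10 highest members, 3 on either side of rank 100, the 8 members past adjusted 0.05 with the largest fold changes in each direction without overlap, the 3 largest moves in rank each way, the 3 largest and smallest SDs per group and the 5 smallest fold changes. Since the files pair no probe with a gene, 2 members that rose and 2 that fell are named. Parent gene lists were not used here. The number of arrays limits the precision.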

Additional observations from a re-analysis of the deposited data

How the results depend on the processing

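The count of members past adjusted p 0.05 was 33, and 20 with the methods' t-test, 2 with the slide row as a block and 15 to 41 with each array left out in turn, beside 18.1%, 2.16% and 10.9% to 39.2% of all tested probes. The other alternatives gave 24 to 40. The 24 stood beside 232 of 1797 probes, without a filter on dim probes. The 40 stood beside 199 and 195 of 742 probes with normexp correction at offsets 16 and 50. On the deposited values 40 stood beside 204 of 792 probes. With the replicate block 31 members were past adjusted 0.05, beside 218 of 742 tested probes. In that fit 21 members passed the thresholds on fold change and unadjusted P. Whether the replicate numbers pair the samples is not settled. The deviations of arrays of the same number correlated at 0.11, 0.35 and -0.04 over the tested probes. With 3 arrays per group, these values cannot decide it. The count past the thresholds on fold change and unadjusted P was 18 to 26 over all alternatives, beside 21. Of all tested probes 19.1% passed them in the main fit, and 17.7% with the slide row as a block. With scaling to the 75th percentile 10.2% were higher and 9.57% lower, beside 5 and 21 members. For the other alternatives no such share is given, so their counts do not place the members beside all probes. The difference in the members' share of the signal turned from -0.71 to 0.0794 percentage points with normexp correction before normalization. After quantile normalization, which leaves this share little room to differ, the difference was 0.022. Without either step it was 0.84 for the 10 highest members and 2.41 for the 6 highest, the last chosen after seeing the data. The cause was not tested. With each array left out, the difference of -0.71 stayed between -0.94 and -0.507. Spearman's rho of the group means stayed between 0.892 and 0.907. The difference of the median SDs was 0.0887 to 0.272 with each array left out, and lowest without db/db replicate 1. For the 16 members past adjusted 0.05 that the naming rule took, 29 of 288 alternative values were no longer past it, 14 of them with the slide row as a block, and none changed sign. For the 17 other members it took, 16 of 306 values passed and 28 changed sign without passing, where a fold change of 0 was given no sign. Signal over background limited none of the members.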
